A study of Homo sapiens with 24 samples.

Results

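The genes described here encode the transcription factors that assemble on promoters of class II major histocompatibility genes, called MHC II genes below. They were the coactivator CIITA, the RFX subunits RFX5, RFXAP and RFXANK, and the NF-Y subunits NFYA, NFYB and NFYC. Every probe carrying 1 of these 7 symbols as its gene name in the array files was taken, which gave 16 probes (4 for CIITA, 1 for each RFX subunit and 3 for each NF-Y subunit) among 41000 probes and 30142 gene names. The question was whether the transcripts of these regulators moved when FOXP1, a forkhead transcription factor, was silenced in diffuse large B-cell lymphoma (DLBCL) cells.

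The cells were 4 established DLBCL lines. DB and K422 belong to the germinal center B-cell-like (GCB) subtype, while HBL-1 and OCI-Ly3 belong to the activated B-cell-like (ABC) subtype. Cells were nucleofected at 1 µM with 1 of 2 Stealth siRNAs against FOXP1, called siFOXP1 #1 and siFOXP1 #2 here, or with a low-GC negative control siRNA (siCtrl), and RNA was taken 48 h later. Each line and siRNA had 3 replicate arrays, giving 8 groups and 24 2-color arrays, with 6 arrays per line. On every array the siFOXP1 RNA was labeled with Cy3 and its siCtrl RNA with Cy5. As no dyes were swapped, within a line, probe-specific dye bias and silencing cannot be told apart, but such a bias cancels in a difference between lines if it is common to all arrays. The replicates were independent silencing experiments per the study's methods. Each subtype was represented by 2 lines, so p-values measure the spread between arrays of these lines and not that between lymphomas. The main fit takes the arrays of both siRNAs with the same replicate number as independent. The labels do not settle whether such arrays share their siCtrl RNA.

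CIITA does not bind DNA itself. It is recruited to MHC II promoters by a platform in which the RFX complex sits on the X box, CREB family proteins on the adjacent X2 box and the NF-Y trimer on the Y box, an inverted CCAAT sequence. Loss of CIITA or of an RFX subunit abolishes MHC II expression in the bare lymphocyte syndromes, and in B cells CIITA is regarded as the limiting factor that sets MHC II output.

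Part of the X box, with the letters TGATGATG, and the Y box core, CCAAT or in reverse ATTGG, can be read in the promoters of the genes these regulators serve. The RefSeq promoter table (GRCh38.p14, 250 bases before to 50 after each gene start, both strands searched) held 13 of the MHC II target genes; a gene can have several starts. TGATGATG together with CCAAT occurred in 4 of these 13 and in 0.387% of all 35116 promoters. The 4 windows are shown in the direction of the gene, with the matches to both cores in capitals.
HLA-DRB1 (chr6:32589880-32589931, minus strand): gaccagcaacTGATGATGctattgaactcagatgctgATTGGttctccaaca
HLA-DOB (chr6:32817086-32817136, minus strand): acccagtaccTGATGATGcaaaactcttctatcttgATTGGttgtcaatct
HLA-DMA (chr6:32953162-32953214, minus strand): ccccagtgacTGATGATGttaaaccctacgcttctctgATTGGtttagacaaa
HLA-DMB (chr6:32941036-32941120, minus strand): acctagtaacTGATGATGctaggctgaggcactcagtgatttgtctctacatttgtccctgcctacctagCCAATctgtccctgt
The cores were separated by 19 bases in HLA-DRB1, 18 in HLA-DOB and 20 in HLA-DMA, in each case with the Y box as ATTGG. In HLA-DMB the nearest CCAAT lay 52 bases on and in the other orientation. CCAAT alone was found in 12 of 13 target promoters, but also in 34.6% of all promoters. A match is a description of the letters and not evidence of binding.

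CIITA was read by 4 probes spread along the gene, whose positions matter because they responded with different sizes. The array design assigns A_23_P33384 and A_32_P209960 to the same transcript record, and A_24_P229936 and A_23_P353478 to different ones. The first 30 bases of each 60-base probe are shown with its hg18 position on chromosome 16 as given by the array design.
A_24_P229936 (chr16:10909524-10909585): ggaagagacatccttgtgttgggcattaac
A_23_P33384 (chr16:10924664-10925275): ccagctgtgctctggacaggcatgttctct
A_32_P209960 (chr16:10926168-10926227): gcttcatttcctgtgtcttttttcactaca
A_23_P353478 (chr16:10933540-10933599): tctcatttgtcacacactttggctattaga
The interval of A_23_P33384 covers 612 bases for a 60-base probe, so the probe joins sequence on both sides of an intron. A_32_P209960 was the brightest CIITA probe over all arrays and stands for the gene below, as the brightest probe does for every gene. The single RFXAP probe (chr13:36300541-36300600) began with tatctgtgaatttaggatgtgcatctcttt.

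FOXP1 itself, read by its brightest probe, fell on 24 of 24 arrays. Its mean log2 ratio of siFOXP1 to siCtrl was -2.00 for DB, -1.96 for OCI-Ly3, -1.74 for HBL-1 and -1.34 for K422 (limma adjusted p at most 3.30e-09). Between 57.3% and 64.5% of the probes were well above background in a channel per array. The B-cell markers CD79A, CD79B, MS4A1, CD22, BLK and PAX5 were well above background in all control arrays of every line. Among 5 T-cell markers, 3 were well above background on all 6 K422 control arrays (CD3D and CD3G among them, neither of which was on any DB array), and the summed level ran from -3.79 in DB to 3.92 in K422 (log2 over the array's 75th percentile). Their part in the results was not tested. In these bulk samples a change in the share of cells expressing a gene and a change in RNA per cell cannot be told apart.

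CIITA was measured well in 3 of the lines, and its log2 ratio was above 0 on every OCI-Ly3 array and below 0 on every K422 array. In OCI-Ly3 the log2 ratio ran from 0.38 through a median of 0.48 to 0.68, above 0 on 6 of 6 arrays, with a mean of 0.51 ± 0.13 (SD, n = 6 arrays). In HBL-1 it ran from -0.08 through 0.13 to 0.43, above 0 on 5 of 6 arrays (mean 0.13 ± 0.17). In K422 it ran from -0.45 through -0.33 to -0.23, below 0 on 6 of 6 arrays (mean -0.33 ± 0.07). The K422 arrays overlapped with those of neither ABC-DLBCL line, while the highest HBL-1 array lay inside the OCI-Ly3 range.

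In DB the CIITA signal gave no usable reading. The brightest probe was well above background on 2 of 6 arrays in either channel, and its log2 ratios scattered from -0.64 to 1.51. The fit across all genes estimates 1 spread per gene over all 24 arrays, so the DB arrays widened the error of CIITA in every line. With them, the OCI-Ly3 mean of 0.51 had a standard error of 0.20 and a limma adjusted p of 0.0826, which missed the threshold (adjusted p under 0.05 and a log2 size of at least 0.5, or 1.41-fold). The K422 mean had an adjusted p of 0.28. Without the DB arrays, an alternative added after the data were seen, the standard error was 0.048. The same OCI-Ly3 mean then passed (adjusted p = 8.84e-06), while K422 (adjusted p = 0.000252) and HBL-1 (adjusted p = 0.0465) stayed below the required size. The fit without DB was not repeated with a replicate block or with the siRNAs averaged.

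The remaining CIITA probes gave further readings on the same arrays, though probes of different transcript records need not read the same transcript. The A_23_P353478 log2 ratio in OCI-Ly3 ran from 0.77 through 0.83 to 1.08 and rose by a mean of 0.87 (adjusted p = 0.000175, probe fit with the DB arrays). The A_23_P33384 log2 ratio ran from 0.59 through 0.67 to 0.88 and rose by 0.70 (adjusted p = 0.0104). The most upstream probe, A_24_P229936, ran from 0.17 through 0.39 to 0.49, with a mean of 0.36 that did not reach the size threshold (adjusted p = 0.0316). Thus 2 of 4 CIITA probes passed the test in OCI-Ly3, where 2.97% of all 40999 tested probes passed it as higher, and 3 of 4 passed without the DB arrays. All 4 probes were above 0 on every OCI-Ly3 array.

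The same probes were less uniform in the other lines. In HBL-1 their means were 0.13 for A_32_P209960, 0.17 for A_23_P353478, 0.36 for A_23_P33384 and 0.45 for A_24_P229936, so none reached the size threshold, and the probe that was lowest in OCI-Ly3 was the highest here (adjusted p = 0.00484). In K422 their means were -0.33, -0.28, -0.12 and 0.05 in the same order, so the probes differed in sign. In DB the probes other than the brightest were not well above background in the control channel on any array.

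**Figure D1:**
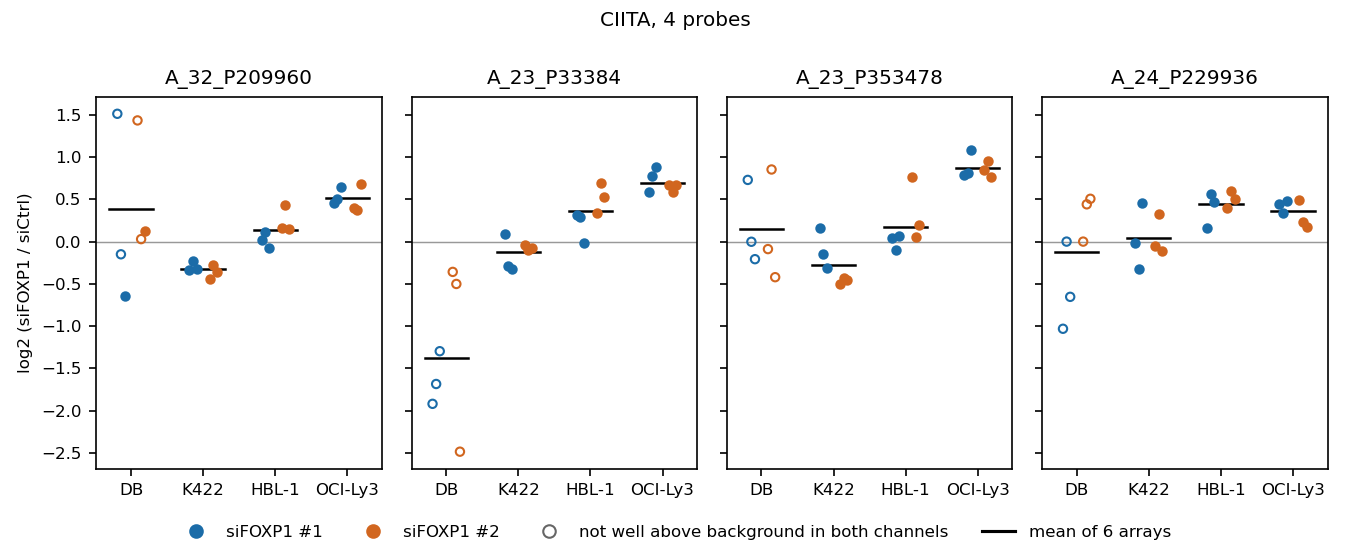
Log2 ratio of siFOXP1 to siCtrl for the CIITA probes on each array, by line, with siFOXP1 #1 and #2 in different colors, open circles for arrays not well above background in both channels, and a bar at the mean of the 6 arrays of a line. The OCI-Ly3 arrays sit above 0 for all 4 probes, the K422 arrays of the brightest probe sit between -0.45 and -0.23, and the DB arrays scatter widely because the signal there is near background.

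RFXAP was the only one of the 7 transcripts that passed the test, and its direction was the same on every array. RFXAP is the RFX-associated protein, a subunit without which the RFX complex does not bind the X box. Its log2 ratio ran from -0.83 through -0.52 to -0.31 in DB, from -0.66 through -0.44 to -0.22 in K422, from -1.01 through -0.51 to -0.21 in HBL-1 and from -0.78 through -0.54 to -0.47 in OCI-Ly3. The ranges of the 4 lines overlapped, and RFXAP was below 0 on 24 of 24 arrays. Of the 13263 genes detected above background with both dyes on each array, 2.29% were likewise lower on all 24.

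RFXAP fell by 0.59 on the log2 scale in OCI-Ly3 (SE 0.071, limma adjusted p = 1.56e-05), by 0.55 in DB (adjusted p = 7.98e-05) and by 0.52 in HBL-1 (adjusted p = 1.87e-05). In K422 the mean was -0.46 (adjusted p = 0.000192), short of the required size. The mean over the 4 lines was -0.53 (SE 0.036, adjusted p = 3.13e-09). Because all 4 means lay within a narrow range of the threshold of 0.5, the call depended on the background correction. With normexp and loess the DB mean was -0.37, the HBL-1 mean -0.38 and the 4-line mean -0.39, all under the size threshold. The direction was the same under every setting tried. No dye-swapped array exists among those analysed here, so a dye bias of this 1 probe cannot be told apart from a common response.

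Set against all genes, 1 of 7 members passed the test in DB, where 2.16% of all genes did. None of the 7 passed in K422, where 4.44% of all genes did. An unadjusted limma p under 0.05 was reached there by 5 of the 7, and by 9035 of all 30142 genes. In HBL-1 1 of 7 passed against 9.9% of all genes, and in OCI-Ly3 1 of 7 against 4.42%. For the mean of the 4 lines 1 of 7 passed against 2.57%. The call was RFXAP in each case, and with a single gene the share says little about the group.

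The other RFX subunits did not reach the size threshold in any line. RFX5, the subunit with the RFX DNA-binding domain, ran from -0.32 to 0.02 in DB, from -0.07 to 0.36 in K422, from -0.11 to 0.09 in HBL-1 and from -0.08 to 0.17 in OCI-Ly3. Its K422 mean of 0.16 had an adjusted p of 0.00945 but lay below the size threshold, and its other line means lay between -0.09 and 0.03. RFXANK, the ankyrin repeat subunit, was above 0 on 6 of 6 arrays in both HBL-1 (0.17 to 0.30) and OCI-Ly3 (0.02 to 0.25) and on 5 of 6 in K422. Its means were 0.21 in HBL-1 (adjusted p = 0.000336), 0.16 in OCI-Ly3 (adjusted p = 0.00703), 0.17 in K422 (adjusted p = 0.00414) and -0.01 in DB. These RFXANK values were below the size threshold, and with normexp and median centring those of K422, HBL-1 and OCI-Ly3 became negative, between -0.13 and -0.11. RFXAP was thus the RFX subunit with the largest line means in size, and the only one of the 3 that passed in any line.

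For NF-Y, no subunit passed the test in any line. NFYA carries the DNA contact of the trimer with the CCAAT box. Its brightest probe had a mean of 0.15 in HBL-1 (adjusted p = 0.00641), against 0.01 for DB, 0.09 for K422 and -0.02 for OCI-Ly3. A_23_P501583, another NFYA probe, had means of -0.05 in HBL-1, -0.24 for DB, -0.31 for K422 and -0.10 for OCI-Ly3, so the NFYA probes differed in sign.

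NFYB, a histone-fold subunit, had responses of different sign in HBL-1 and K422. In HBL-1 its log2 ratio ran from -0.49 through -0.23 to 0.002, below 0 on 5 of 6 arrays (mean -0.27, adjusted p = 0.00361). In K422 it ran from 0.004 through 0.22 to 0.35, above 0 on 6 of 6 arrays (mean 0.18, adjusted p = 0.0539). The OCI-Ly3 mean was -0.08 and the DB mean 0.03. The HBL-1 and K422 arrays did not overlap. A_23_P53668 had means of -0.28 in HBL-1 and 0.08 in K422, and A_24_P49731 had means of -0.32 and 0.21, so all 3 NFYB probes had the same signs in this pair of lines.

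NFYC, the other histone-fold subunit, was below 0 on 6 of 6 K422 arrays (-0.29 to -0.05, mean -0.15, adjusted p = 0.456), and its means elsewhere were -0.11 (DB), 0.04 (HBL-1) and -0.0034 (OCI-Ly3). Its DB arrays scattered from -1.06 to 0.45 and set the error of the gene. Without the DB arrays the K422 mean had an adjusted p of 0.000458, and NFYC was higher by 0.19 in HBL-1 than in K422 (adjusted p = 0.00207) and by 0.15 in OCI-Ly3 than in K422 (adjusted p = 0.0132), all below the required size. In OCI-Ly3 the 6 NFYC arrays lay between -0.05 and 0.03.

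**Figure D2:**
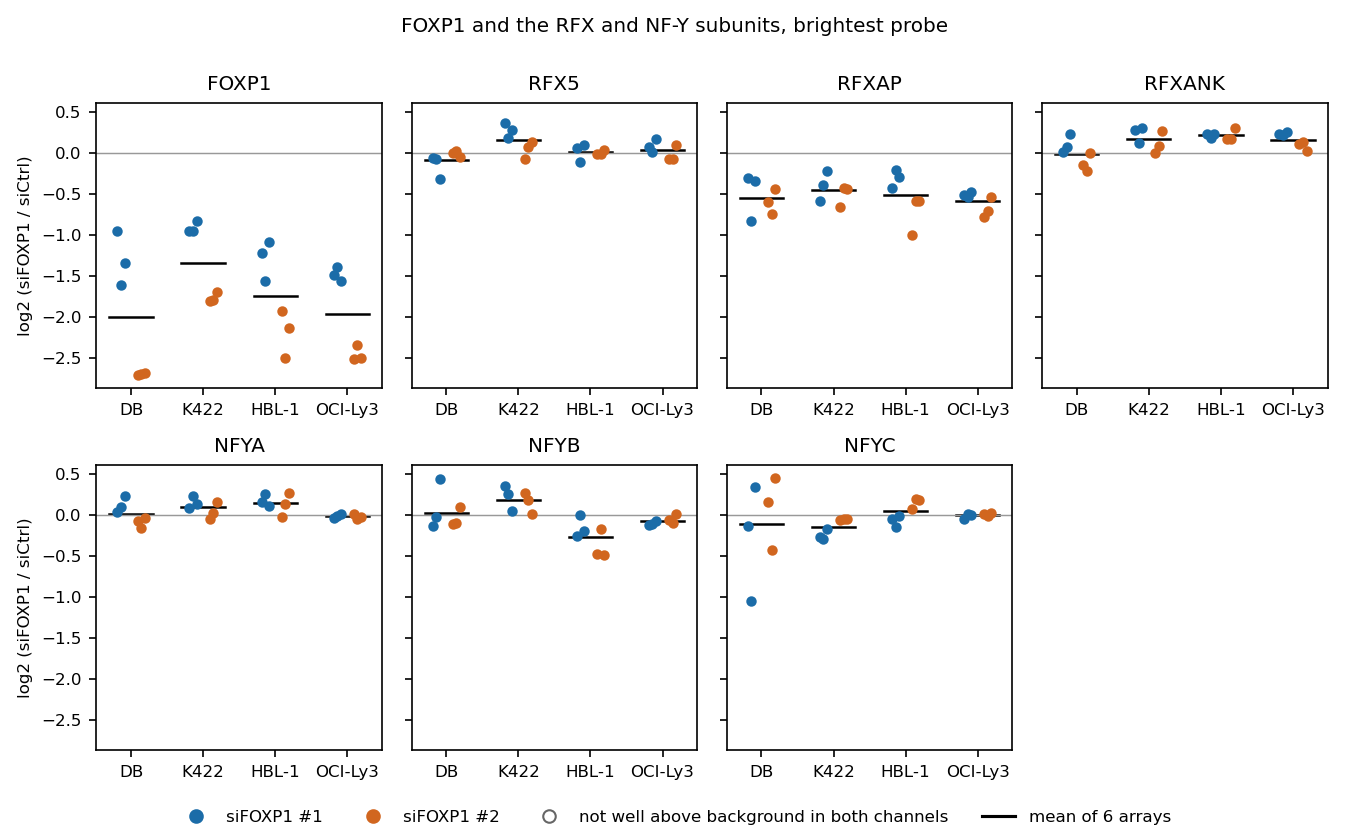
Log2 ratio of siFOXP1 to siCtrl for FOXP1 and the RFX and NF-Y subunits on each array (brightest probe), by line and siRNA. FOXP1 and RFXAP are below 0 on all 24 arrays, while the arrays of RFX5, RFXANK, NFYA, NFYB and NFYC lie on both sides of 0.

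The difference between ABC-DLBCL and GCB-DLBCL lines was tested directly, in which a dye bias common to all arrays cancels. For no member did it pass both thresholds, against 2.26% of all genes. An unadjusted p under 0.05 was reached by 2 of the 7 members and by 6233 of all 30142 genes. The NFYB difference was -0.28 (SE 0.064, adjusted p = 0.0112), and it was -0.45 between HBL-1 and K422 (SE 0.091, adjusted p = 0.00378), below the size of 0.5 in both cases. On the 1 slide that held arrays of both HBL-1 and K422 the NFYB difference was -0.40. The RFXAP difference between subtypes was -0.05, with a 95% interval from -0.20 to 0.09 (adjusted p = 0.722). On the slides that held 2 lines, with 1 array of each siRNA per line, RFXAP was lower in the ABC-DLBCL line. The differences were -0.25 for OCI-Ly3 minus DB and -0.39 for HBL-1 minus K422, with no test. In the fit of all arrays the 95% intervals of the same pairs ran from -0.26 to 0.16 and from -0.27 to 0.15. The first slide value lay inside its interval and the second beyond it, but the slide arrays are among those fitted. Such an interval is for the mean difference and does not describe the spread of subsets of arrays.

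The CIITA difference between subtypes was 0.29 (SE 0.20, adjusted p = 0.449) and rested in part on the unreadable DB arrays. When the CIITA probes were averaged in place of taking the brightest, it was 0.65 (adjusted p = 5.29e-05), an average that takes in DB probes at background, such as A_23_P33384 with a DB mean of -1.38. Within a scan, no member passed both thresholds between OCI-Ly3 and DB, against 1.43% of all genes, and none between HBL-1 and K422, against 4.34%. By unadjusted p, 1 and 2 members were under 0.05, with no count over all genes to set beside them. Between HBL-1 and K422, the pair without DB, the CIITA difference was 0.46 (SE 0.0679, adjusted p = 0.000573 in the fit without the DB arrays, and 0.375 with them), and it was 0.43 on the slide that held both lines. OCI-Ly3 exceeded K422 in the CIITA log2 ratio by 0.84 (adjusted p = 7.34e-06 without the DB arrays, 0.0840 with them), but these lines belonged to different scans and the scan cannot be told apart from the line.

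The siRNAs differed in strength against FOXP1 and were compared for the members. The mean FOXP1 log2 ratio with siFOXP1 #1 and #2 was -1.30 and -2.70 in DB, -0.91 and -1.76 in K422, -1.29 and -2.19 in HBL-1, and -1.48 and -2.45 in OCI-Ly3. RFXAP was also lower with #2 in each line: -0.50 and -0.60 in DB, -0.40 and -0.51 in K422, -0.31 and -0.73 in HBL-1, and -0.51 and -0.68 in OCI-Ly3. The RFXAP difference between siRNAs over the 4 lines was -0.20 (SE 0.071, unadjusted p = 0.0116 from limma), which did not pass adjustment (adjusted p = 0.245). No member passed for this difference, against 0.189% of all genes. An unadjusted p under 0.05 was reached by 3 members, with no count over all genes to set beside it. The CIITA difference was 0.10 (SE 0.196, adjusted p = 0.897).

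**Figure D3:**
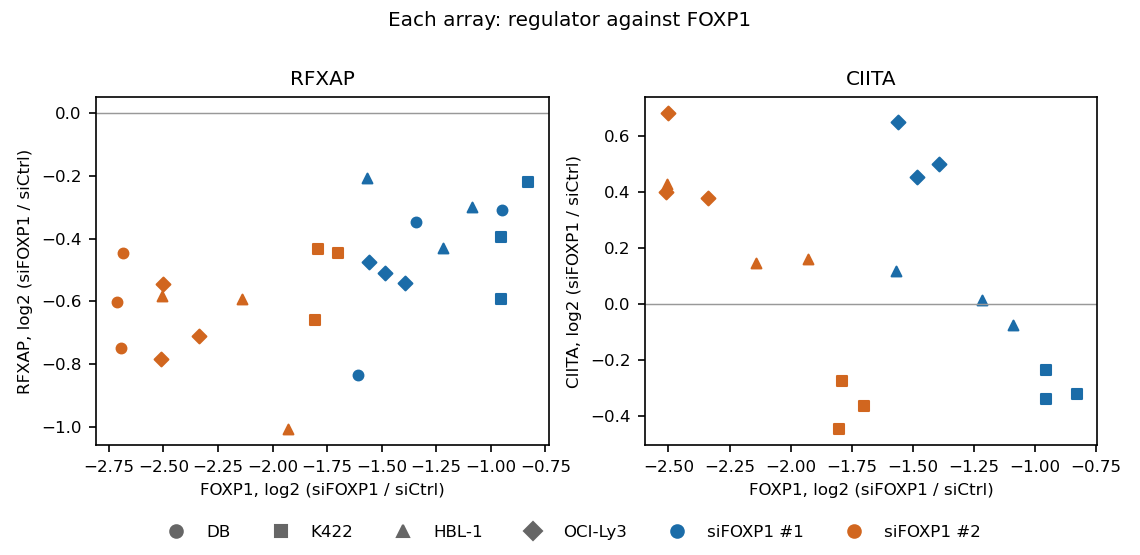
Log2 ratio of RFXAP (24 arrays) and CIITA (18 arrays, without DB) against that of FOXP1 on the same array, by line and siRNA. RFXAP and FOXP1 are each below 0 on all 24 arrays. The CIITA arrays of OCI-Ly3 all lie above 0 and those of K422 all below 0, with HBL-1 between them and its highest array inside the OCI-Ly3 range.

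The levels before silencing were read from the siCtrl channel as log2 signal over the array's 75th percentile, with the same-numbered arrays of a line averaged to 3 control samples. A level can be set against another line for the same probe but not against another gene. DB and OCI-Ly3 shared a scan, and K422 and HBL-1 shared the other. A level difference or order between lines of different scans cannot be told apart from the scan. OCI-Ly3 minus DB, HBL-1 minus K422 and the subtype difference compare lines within a scan. A level difference was called at an adjusted p under 0.05 and at least 2-fold.

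CIITA was highest in OCI-Ly3, with control levels of 3.46, 3.52 and 3.40. K422 followed with 1.98, 1.74 and 1.87 and HBL-1 with 1.87, 1.31 and 1.38, and these neighbors overlapped (difference -0.34, adjusted p = 0.701). The order of these middle lines depended on the probe, since A_24_P229936 was higher in HBL-1 than in K422 by 0.78 with no overlap (adjusted p = 0.00107). OCI-Ly3 exceeded HBL-1 by 1.94 on the log2 scale (adjusted p = 0.0104) and K422 by 1.59 (adjusted p = 0.0253). Both differences lie between scans, so the scan cannot be told apart from the line. By A_23_P353478 the excess over HBL-1 was 0.63 (adjusted p = 0.0510). DB lay far below, at -7.10, -5.56 and -4.26, at or near background. The 3 other CIITA probes were not well above background in the control channel of any DB array. For a fold value, DB was taken at its own signal or the lowest detected signal, whichever was higher. The A_23_P33384 signal exceeded that of DB 22.9-fold (K422), 20.0-fold (HBL-1) and 109-fold (OCI-Ly3), with a limma adjusted p of at most 3.22e-08. As the DB signal of this probe was not told apart from background, these fold values are estimates and not bounds. By A_24_P229936, likewise at background in DB, the fold values were lower, at 9.96, 17.2 and 30.6 in the same order. The MHC II gene HLA-DRA was likewise lowest in DB and highest in OCI-Ly3, with mean control levels of -3.15 and 4.69 there, against 3.18 for K422 and 3.25 for HBL-1. CD74, the invariant chain, had mean control levels of 0.36 for DB, 2.31 for K422, 2.34 for HBL-1 and 3.29 for OCI-Ly3.

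RFXAP was ordered by subtype. Its control levels were 0.96, 1.04 and 1.03 for OCI-Ly3 and 0.03, 0.13 and 0.18 for HBL-1. Those of K422 were -0.86, -0.63 and -0.66, and those of DB were -1.03, -0.73 and -0.75. The ABC-DLBCL samples lay above all GCB-DLBCL samples, and the subtype difference was 1.34 (2.53-fold, adjusted p = 1.56e-07). K422 and DB overlapped (difference 0.12, adjusted p = 0.411). OCI-Ly3 exceeded DB by 1.85 (3.60-fold, adjusted p = 2.38e-07), and HBL-1 exceeded K422 by 0.83 (adjusted p = 0.000176), under 2-fold. RFX5 was highest in OCI-Ly3 (mean 1.87), then K422 (1.44), DB (1.05) and HBL-1 (0.70), and RFXANK was highest in OCI-Ly3 (5.38), then DB (4.49), K422 (4.09) and HBL-1 (3.73). Each neighboring pair of lines differed in both genes at an adjusted p of at most 0.0408, though each by less than 2-fold. For RFX5 every such pair, and for RFXANK the pair of DB and K422, came from different scans.

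The NF-Y subunits had different orders. NFYA was lowest in K422, with control levels of -0.89, -0.54 and -0.35, while HBL-1, OCI-Ly3 and DB had means of 1.24, 1.05 and 0.93. HBL-1 exceeded K422 by 1.84 (3.58-fold, adjusted p = 1.58e-06), and neither HBL-1 and OCI-Ly3 (adjusted p = 0.298) nor OCI-Ly3 and DB (adjusted p = 0.626) passed a test of their difference by this brightest probe. The other NFYA probes, well above background in every line, also placed K422 lowest but differed elsewhere. A_24_P414719 was lower in OCI-Ly3 than in DB, with a log2 difference of -2.66 (adjusted p = 9.98e-07), and A_23_P501583 was lower in OCI-Ly3 than in HBL-1, with a difference of -1.58 (adjusted p = 9.73e-06). NFYB was lowest in HBL-1, at 1.16, 1.05 and 1.07, with means of 2.69 in DB, 2.65 in OCI-Ly3 and 2.27 in K422, so HBL-1 was 2.26-fold below K422 (adjusted p = 1.04e-05). By A_23_P53668 that NFYB difference was 1.36-fold (adjusted p = 0.0456). By its brightest probe, NFYC was ordered from DB (2.54, 1.99 and 1.92) through K422 (1.24, 1.26 and 1.29) and HBL-1 (0.65, 0.51 and 0.62) to OCI-Ly3 (0.12, 0.06 and -0.06), with no overlap between neighbors. OCI-Ly3 was 4.31-fold below DB for NFYC (adjusted p = 6.57e-07), and the NFYC difference between subtypes was -1.39 (adjusted p = 9.93e-07). The other well-detected NFYC probe, A_23_P22994, was also highest in DB, with a mean of 1.13, but placed OCI-Ly3 (0.10) and HBL-1 (-0.07) above K422 (-0.33), and its subtype difference of -0.39 was below the size threshold (adjusted p = 0.0125).

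In all, 3 members passed for the level between OCI-Ly3 and DB (CIITA and RFXAP higher, NFYC lower), against 25.8% of all genes. Between HBL-1 and K422 2 members passed (NFYA higher, NFYB lower), likewise against 25.8%. Between the subtypes 3 passed (CIITA and RFXAP higher, NFYC lower) against 21.3%, and the CIITA call there rested on DB. The NFYC subtype call was lost when probes were averaged (-0.97).

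**Figure D4:**
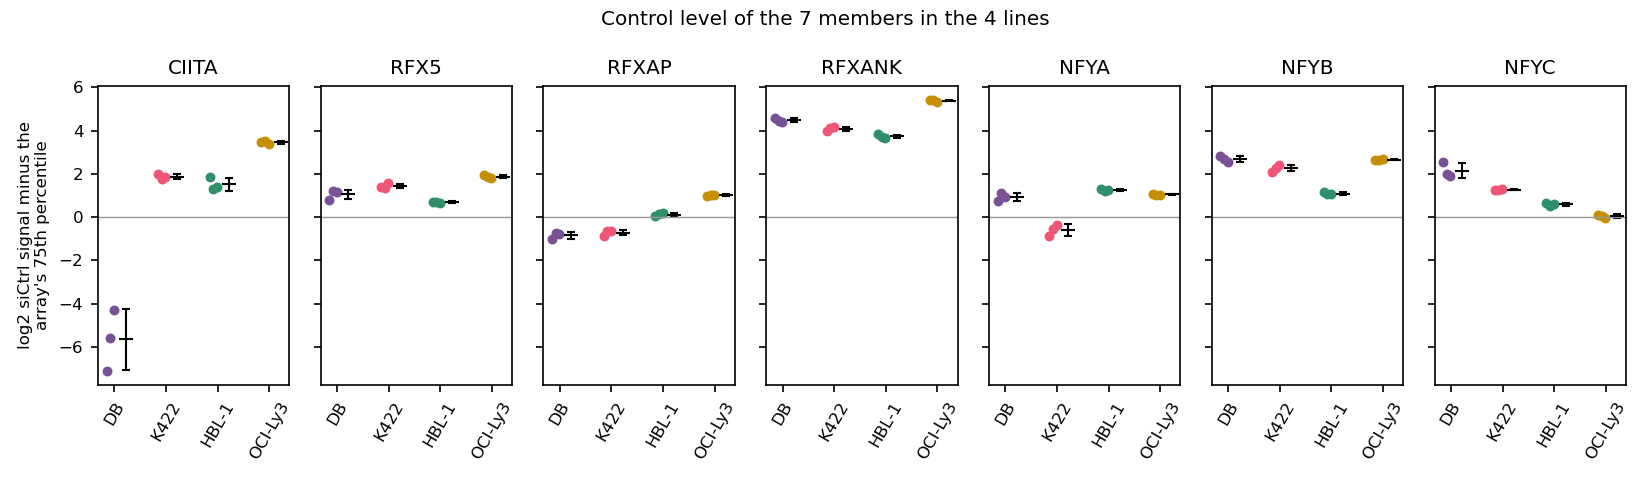
Control (siCtrl) level of each of the 7 genes in the 4 lines, as log2 signal over the array's 75th percentile, with 3 control samples per line and their mean ± SD. CIITA is highest in OCI-Ly3 and at background in DB, RFXAP is higher in both ABC-DLBCL lines than in both GCB-DLBCL lines, and NFYC, by its brightest probe, is lowest in OCI-Ly3. DB and OCI-Ly3 came from a different scan than K422 and HBL-1.

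The target genes of the enhanceosome were read beside it. The list of 18 MHC II target genes on the array held every gene name that starts with HLA-D, and CD74. Of these 18, 0 rose and 2 fell in DB (HLA-DQA2 and HLA-DQB1), 0 passed in K422, 6 rose in HBL-1 and 11 rose in OCI-Ly3, with CD74 among the risers in both. Over all genes, 0.829% fell in DB, 5.73% rose in HBL-1 and 2.8% rose in OCI-Ly3. The median log2 ratio of the list was 0.56 for OCI-Ly3 and 0.35 for HBL-1, against -0.10 for DB and -0.13 for K422, where all genes had a median of 0 in each line. The CD74 log2 ratio was 0.95 in HBL-1 (adjusted p = 1.38e-07) and 0.73 in OCI-Ly3 (adjusted p = 7.33e-06). HLA-DRA, which encodes the alpha chain of HLA-DR, had log2 ratios of 0.40 in HBL-1 (adjusted p = 0.00764) and 0.36 in OCI-Ly3 (adjusted p = 0.0233), both under the size threshold. CIITA was above 0 on all OCI-Ly3 arrays, but in HBL-1, where CD74 rose most, its mean was 0.13 (limma adjusted p = 0.740). RFXAP was lower in both ABC-DLBCL lines, and also in DB (-0.55) and K422 (-0.46), where no target rose. Near-identical HLA-DRB and HLA-DQ genes may share signal between probes.

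The X2 box is bound by CREB1, ATF1 and CREM. Of these 3, only ATF1 passed the test, in HBL-1 (log2 ratio -0.54, adjusted p = 4.80e-06), where 9.9% of all genes passed. None passed in DB, K422 or OCI-Ly3, although 3, 2 and 3 of them had an unadjusted p under 0.05. In those lines 7094, 9035 and 8809 of all 30142 genes had such a p. The median of the 3 genes lay between -0.31 and -0.17 in the 4 lines.

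Among 12 cofactors that CIITA recruits, the elongation factor subunit CCNT1 rose in DB (0.50, adjusted p = 0.0396) and the deacetylase HDAC1 rose in HBL-1 (0.59, adjusted p = 8.20e-09). In OCI-Ly3 the acetyltransferases EP300 (-0.58, adjusted p = 0.00117) and KAT2B (-0.61, adjusted p = 1.97e-05) fell. Over all genes, 2.16% passed in DB, 9.9% in HBL-1, 4.42% in OCI-Ly3 and 4.44% in K422, so these few calls say little about the list. None of the 12 passed in K422, where 4 had an unadjusted p under 0.05, as did 9035 of all 30142 genes. List medians lay between 0.01 and 0.06.

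Of 14 regulators upstream of CIITA, 3 rose in HBL-1, where 5.73% of all genes rose. They were IRF8 (1.19, adjusted p = 5.07e-10), an interferon regulatory factor of B cells and myeloid cells, PRDM1 (0.73, adjusted p = 0.0119), the plasma cell factor known to silence CIITA, and SPI1 (0.50, adjusted p = 0.000218), the Ets factor PU.1. None of the 14 passed in DB, K422 or OCI-Ly3, where 4, 3 and 5 had an unadjusted p under 0.05. In those lines 7094, 9035 and 8809 of all 30142 genes had such a p. IRF8 and PRDM1, which have opposite known effects on CIITA, both rose in HBL-1, and their part in its CIITA values was not tested. PRDM1 had a low control level in HBL-1 (-4.33, well above background on 5 of 6 arrays), against 2.16 in OCI-Ly3. Of 7 other RFX family genes none passed in any line, with 1 or 2 at an unadjusted p under 0.05 in each.

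The genes whose log2 ratios over the 24 arrays were most like each member's were named by Pearson's correlation among genes detected above background with both dyes on each array (12909 candidates for CIITA). Arrays of a line share that line, so these values describe similarity and carry no test. For CIITA the leading genes with symbols were TRAP1 (r = 0.83), MVK (0.79) and SCD (0.78), with the DB noise included. Over the 18 arrays without DB, with 13642 candidates, they were HLA-DMB (0.96), HLA-DQA2 (0.94), HLA-DOA (0.94), EPSTI1 (0.94) and RAB3GAP2 (0.93). Of these 5 genes, 3 were MHC II genes, with no share of such genes among the candidates to set beside that count. For CD74 and HLA-DRA the correlation with CIITA was lower, at 0.56 and 0.66 without DB. Over all 24 arrays it was 0.26 and 0.41. The leading gene was RALA for RFXAP (0.77), FAM129C for RFX5 (0.84), ACADVL for RFXANK (0.91), LOC440311 for NFYA (0.84), THC2539706 for NFYB (0.90) and PDE4B for NFYC (0.92).

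As RFXAP was the member lower on every array, its promoter is shown: the 250 bases before the start (GRCh38.p14, chr13:36818972-36819221, plus strand), with a TGACG core, part of the CREB recognition sequence, in capitals 23 bases before the start.
RFXAP: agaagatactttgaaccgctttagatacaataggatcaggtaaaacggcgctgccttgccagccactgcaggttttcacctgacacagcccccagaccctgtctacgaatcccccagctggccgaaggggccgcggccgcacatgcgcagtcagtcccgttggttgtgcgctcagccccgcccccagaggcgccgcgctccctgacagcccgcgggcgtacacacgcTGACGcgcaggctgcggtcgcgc
TGACG occurred in 24.6% of all promoters and in 3 of the 5 member promoters in the table (RFXAP, RFX5 and NFYC). Of 3 forkhead-type cores searched on both strands over these windows, TGTTTAC (3.42% of all promoters) and TATTTAT (4.93%) were in none of the 5, and TATTTGT (3.50%) was in NFYC alone. CCAAT was in 3 of the 5 (NFYA, NFYC and RFX5), and TGATGATG (0.940% of all promoters) was in none. That a core is missing says only that these letters are not in the window.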

How the data were processed

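The authors hybridised siFOXP1 (Cy3) and siCtrl (Cy5) RNA to Agilent whole-genome arrays, 24 in all, and extracted them with Feature Extraction 10.5.1.1 (DB and OCI-Ly3) or 10.7.3.1 (K422 and HBL-1). The deposited log10 ratio of red over green was negated and turned to log2, so that a positive log2 value means higher after silencing. No further centring was applied, and the median log2 ratio of each array was 0. Control levels came from the deposited Cy5 processed intensity, on the log2 scale over the array's 75th percentile. Per the file headers these signals are background-subtracted and dye-normalized. The deposited value table, on a log2 scale per its values, was an alternative (correlation with the scanner ratios 0.804 to 0.998 per array, column medians -0.17 to 0.07, not centred on 0). Control spots and 113 to 469 outlier spots per array were left out, and spots of a probe were averaged. The array number limits precision.

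Each gene was its brightest probe. limma 3.58.1 (R 4.3.3) was fitted to all 24 arrays with a mean per line and siRNA and no replicate block. P-values were adjusted by Benjamini-Hochberg across every gene tested, with calls at adjusted p under 0.05 plus a log2 size of at least 0.5, or 1 for levels. Tested on simulated data, the ratio fit on 29172 genes recovered 80% of rises of log2 1, 84% to 96% of falls of log2 1 and 58% to 62% of rises of 0.5. Recovery there meant an adjusted p under 0.05 without the size threshold, so fewer changes near 0.5 would be called. Deviations of same-numbered arrays, over genes well above background, correlated at 0.204 to 0.743, so the numbers may mark shared runs. A replicate block is given as an alternative, with background correction, normalization, a filter on dim probes, slide, siRNA and left-out replicates. Named genes were the 7 members, FOXP1, CD74, HLA-DRA, called genes of the listed pathways (up to 3 per list and line) and, per member, the genes of highest correlation (5 for CIITA, 3 searched and the first printed for the others). Members and lists were chosen with earlier results of these data known.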

Additional observations from a re-analysis of the deposited data

Results flagged for a closer look

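In 4 of 54 sets of 6 arrays (a probe in a line) the highest or lowest array stood apart from the others, where chance gives about 1 in 20, or 2.7 sets. For CIITA, the HBL-1 array of siFOXP1 #2 replicate 1 read 0.77 on A_23_P353478, with the next at 0.20. For RFX5, the DB array of siFOXP1 #1 replicate 3 read -0.32, with the next at -0.08. For NFYA, the K422 array of siFOXP1 #1 replicate 1 read -0.84 on A_23_P501583, with the next at -0.34. For NFYC, the OCI-Ly3 array of siFOXP1 #1 replicate 1 read 0.081 on A_23_P22994, with the next at 0.0018.

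The effect of silencing stood apart between lines in 3 comparisons, of which the last did not pass its test with all arrays. NFYB differed by -0.28 between ABC-DLBCL and GCB-DLBCL lines (limma adjusted p = 0.0112) and by -0.45 between HBL-1 and K422 (limma adjusted p = 0.00378). CIITA was above 0 on every OCI-Ly3 array and below 0 on every K422 array, a difference of 0.84 that did not pass with the DB arrays (limma adjusted p = 0.0840) and did without them (limma adjusted p = 7.34e-06).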

How the results depend on the processing

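No value changed sign past a threshold under any alternative run. Counts of members called, reported as 1 in DB, 0 in K422, 1 in HBL-1, 1 in OCI-Ly3, 1 for the mean of the 4 lines and 0 for each difference between lines, shifted as follows. With normexp and loess the count was 0 in DB, HBL-1 and the mean of the 4 lines, 2 in OCI-Ly3 (CIITA and RFXAP) and 1 for OCI-Ly3 minus DB (CIITA). With normexp and median centring it was 0 in DB and the mean of the 4 lines. With each line fitted alone and with the methods' t-test it was 0 in DB and 2 in OCI-Ly3. With siFOXP1 #1 alone it was 0 in DB, HBL-1 and the mean of the 4 lines, and with #2 alone it was 1 in K422 (RFXAP) and 1 for HBL-1 minus K422 (NFYB). The filter on dim probes, the mean over probes and the fit without DB arrays (added after seeing the data) each gave 2 in OCI-Ly3, and the mean over probes gave 1 (CIITA) for the subtypes and for OCI-Ly3 minus DB, and, for control levels, 1 in place of 2 between HBL-1 and K422 and 2 in place of 3 between the subtypes (NFYC lost). Scaling levels to the median of detected probes gave 4 between the subtypes (NFYA added). CIITA in OCI-Ly3 had adjusted p from 2.33e-08 to 0.375 over its alternatives.

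Leaving out each replicate in turn gave counts of 0 to 2 in DB (0 without DB replicate 2, and 2 without replicate 3, CIITA and RFXAP), 0 to 1 in K422 (1 without K422 replicate 3, RFXAP), 0 to 1 in HBL-1 (0 without HBL-1 replicate 1), 1 to 2 in OCI-Ly3 (2 without DB replicate 1 or 3, with CIITA), 0 to 1 in the mean of the 4 lines (0 without DB replicate 2), 0 to 1 between the subtypes and between OCI-Ly3 and DB (1 without DB replicate 1, CIITA), and 0 to 1 between HBL-1 and K422 (1 without K422 replicate 3 or HBL-1 replicate 2, NFYB).

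The replicate block (consensus correlation 0.248) changed no call of a member. With it RFXAP in OCI-Ly3 stayed at -0.59 (adjusted p = 4.11e-05), CIITA there at 0.51 (adjusted p = 0.103), and calls over all genes went from 57 to 112 for the siRNA difference. With the siRNAs of a replicate averaged, the limma adjusted p in OCI-Ly3 was 0.0043 for RFXAP and 0.269 for CIITA. For RFXAP in DB it was 0.0125. All-gene calls went from 652 to 80 (normexp with loess) or 48 (normexp with median centring) in DB, from 1338 to 255 or 479 in K422, from 2985 to 978 or 2028 in HBL-1, and from 1332 to 307 or 266 in OCI-Ly3. The HBL-1 minus K422 count went from 1308 to 499 or 306, and to 257 with siFOXP1 #1 alone. The subtype count went from 682 to 145 or 126, and the mean of the 4 lines from 776 to 94 or 379. In DB it was 2048 with the deposited table, 96 with the line alone, 53 with the methods' t-test, 323 with siFOXP1 #2 alone and 386 with the siRNAs averaged. Control level counts with normexp went from 7770 to 4350 (OCI-Ly3 minus DB), 7772 to 3874 (HBL-1 minus K422) and 6415 to 3047 (subtypes). The cause was not tested. Low signal limits CIITA in DB, A_24_P299489 of NFYC and, in DB, A_24_P49731 of NFYB, which were near background.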
